A study of Mus musculus with 18 samples.

Results

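The livers compared here came from 6 of the 18 mice in the series. All 6 were Lipa-/- males given the therapeutic vector: 3 were killed 34 weeks after the injection (mice 9, 11 and 12) and 3 were killed 12 weeks after it (mice 10, 11 and 12). They were chosen by the treatment code in their column names and the time in their sample labels, which is 8 months for the livers called 34 weeks here and 3 months for those called 12 weeks. The same numbers at the 2 time points are different animals. Of 35441 genes in the count table, 14535 had more than 100 reads summed over the 18 livers and were tested.

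The series holds bulk RNA-seq of mouse liver from wild-type mice, untreated Lipa-/- mice and treated Lipa-/- mice, with 3 livers per group at 12 and at 34 weeks. Per the study's methods, the Lipa-/- line lacks exon 4 of Lipa after germline deletion with a CMV-driven Cre and was backcrossed on a C57/BL6N background. Treated mice received rAAV8.hAAT.LIPA, a recombinant adeno-associated virus with an HA-tagged human LIPA cDNA under the hAAT promoter, which is active in hepatocytes, intravenously as young adults. All livers taken at 34 weeks carry the study code 22-106. The livers taken at 12 weeks carry the code 22-132, except untreated mouse 5, which carries 23-004. In the treated mice the time point therefore cannot be told apart from the study code, the age of the mice and whatever was handled per study.

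Lysosomal acid lipase, the product of LIPA, cleaves cholesteryl esters and triglycerides that reach the lysosome with lipoproteins or by autophagy. The free cholesterol and fatty acids it releases leave the lysosome, lower the activity of the SREBP2 pathway of cholesterol synthesis and feed the oxysterols and fatty acids sensed by nuclear receptors. Without the enzyme, hepatocytes and macrophages of the liver fill with esterified lipid, and macrophages, stellate cells and the matrix they form expand.

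Alb, the main plasma protein made by hepatocytes, was at 27990 to 64980 CPM (the read count scaled to the size of the library with TMM factors) in the 6 treated livers, and all 25 hepatocyte genes examined had reads in each of them. In bulk tissue, fewer cells of a type and less RNA per cell cannot be told apart.

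The libraries of the treated mice held 17527848 to 24484495 reads assigned to genes, so 3 reads in a library correspond to between 0.117 and 0.291 CPM. The TMM factors, which correct for the makeup of a library, were 0.587, 0.759 and 0.626 in the 12-week mice and 1.07, 0.957 and 1.05 in the 34-week mice. Transcripts of the major urinary proteins took 25%, 9.11% and 22.7% of reads in mice 10, 11 and 12 at 12 weeks, and between 6.33% and 8.09% at 34 weeks. In single wild-type livers the share ran from 3.31% to 16.3%. Mouse 10 stood apart from its own group, at a distance of 126 and 132 on log2 CPM over all tested genes from mice 11 and 12, which were 83.9 apart. The mean distance between the groups of treated mice was 1.55 times the mean distance within them. In the exact permutation test over the 10 ways to split 6 mice into equal groups this gave p = 0.1 (one-sided), the smallest value the design allows.

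Gene length and base composition moved with the time point. Gene length here means the effective length given per gene by the authors' quantification, averaged over all livers, and not the full transcript length. Among treated livers the median log2 fold change (34 over 12 weeks) rose from -0.74 in the shortest 25% of genes, up to 1322 bases, to 0.62 in the longest 25%, above 3473 bases. In short genes with the lowest GC content it was -1.04 and in long genes with the highest GC content 1.65. The corresponding medians in wild-type mice ran from 0 to 0.27. Against the mean of the wild-type livers, the difference between the longest and the shortest genes was -1.203, -0.975 and -0.999 (log2) in treated mice 10, 11 and 12 at 12 weeks. At 34 weeks it was 0.90, 0.21 and -0.16 in mice 9, 11 and 12. Single wild-type livers ranged from -0.74 to 0.47. The part of this trend in each result was not separated from that of time, and counts of calls are given with and without offsets that remove it, a setting chosen after the data were seen.

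**Figure D1:**
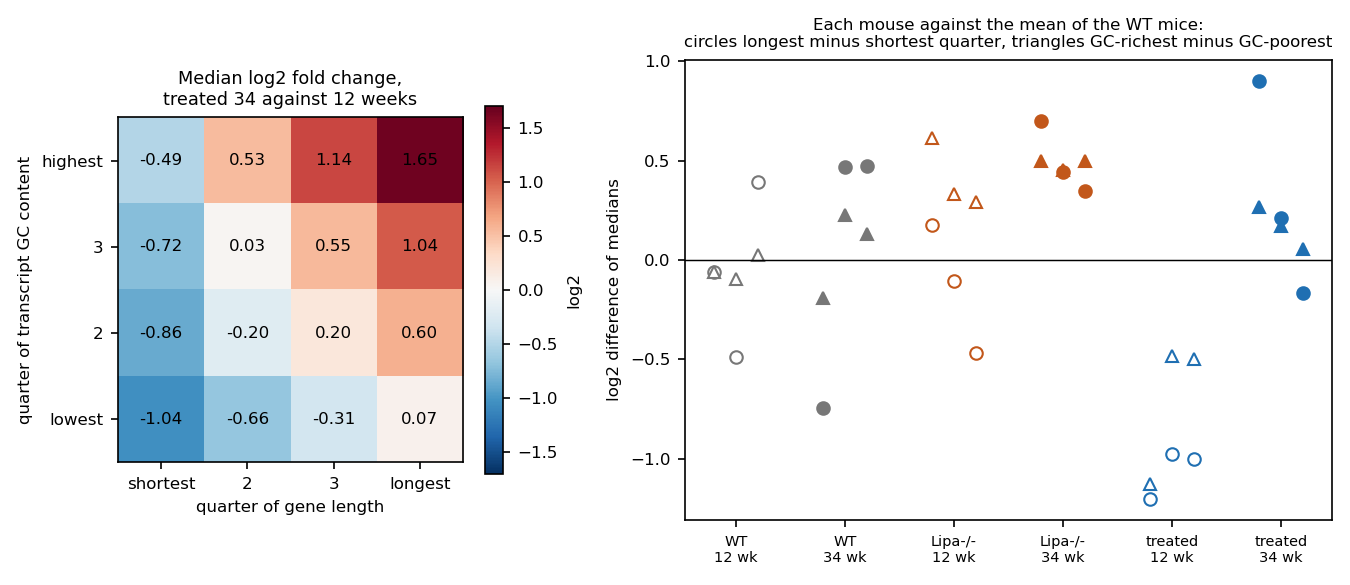
Left, median log2 fold change of treated livers at 34 against 12 weeks in 16 classes of genes split by effective length (horizontal) and by transcript GC content (vertical), each into 4 equal classes. Right, for each of the 18 livers, the log2 difference between the longest and shortest class (circles) and between the GC-richest and GC-poorest class (triangles) against the mean wild-type liver; open symbols are 12 weeks and filled symbols 34 weeks, and the 3 treated livers at 12 weeks lie lowest on both.

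In all, 4646 genes differed between treated livers at 34 and 12 weeks with more than 1 log2 unit and an adjusted p under 0.05 in edgeR's quasi-likelihood test, which is 32% of the genes tested. Of these, 2543 (17.5% of tested genes) were higher and 2103 (14.5%) lower at 34 weeks. Counts of rising and falling genes in every list below stand against these shares. The median change over all tested genes was 0.08. With offsets for length and GC content 3055 genes passed, 1422 higher (9.78%) and 1633 lower (11.2%), and 2303 of them had passed in the same direction without offsets. When libraries were scaled by total counts alone, the median of all genes shifted to 0.71, and 87.8% of calls were higher at 34 weeks in place of 54.7%. The 3 values of each group did not overlap for 53.8% of all tested genes. For 94.6% of the called genes, and for 79.2% of all tested genes, the treated mean was nearer to the mean of the time-matched wild-type mice at 34 weeks than at 12 weeks. The median absolute distance of called genes from wild-type was 1.14 log2 units at 12 weeks and 0.27 at 34 weeks, and over all tested genes, not chosen for a change, 0.562 and 0.195. Distances to wild-type were not computed with the offsets. The treated livers at 12 weeks differed from wild-type livers in the length and GC trend, and its part in these distances was not tested.

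The transgene was present in all 6 livers. Values of treated mice are given here in the order of mice 10, 11 and 12 at 12 weeks and of mice 9, 11 and 12 at 34 weeks. The human LIPA transcript was at 1577, 907 and 2631 CPM at 12 weeks and 1316, 2746 and 523 CPM at 34 weeks. It was highest in mouse 11 at 34 weeks and lowest in mouse 12 at 34 weeks, and the groups overlapped (log2 fold change -0.16 ± 0.75 SE, adjusted p = 0.882). Per length, hLIPA was at 548 to 1275 TPM (the authors' length-scaled unit) at 12 weeks and 519 to 2493 TPM at 34 weeks. Reads of mouse Lipa, which lacks exon 4 in this line, gave 32.6, 31.02 and 37.04 CPM at 12 weeks and 29.1, 31.2 and 30.4 CPM at 34 weeks, against means of 237 and 305 CPM in wild-type mice at 12 and 34 weeks. The treated groups overlapped (log2 fold change -0.15 ± 0.21 SE, adjusted p = 0.576). A further row of the table, named Lipa.delta4, held 1.49 estimated reads in mouse 11 at 12 weeks, none in the other treated and untreated Lipa-/- livers, and at most 8.36 in a wild-type liver, so it did not mark the deletion.

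Several genes of fatty acid synthesis rose. Of 20 de novo lipogenesis genes, 10 rose and none fell, with a median log2 fold change of 0.96, against 17.5% of all tested genes rising, 14.5% falling and a median of 0.08. Fasn, the fatty acid synthase, was at 135, 139 and 153 CPM at 12 weeks and 1931, 815 and 600.1 CPM at 34 weeks. All 3 mice at 34 weeks were above all mice at 12 weeks, with mouse 9 highest (log2 fold change 2.97 ± 0.58 SE, adjusted p = 0.00176). Acaca, the acetyl-CoA carboxylase that makes the substrate of fatty acid synthase, was at 14.96, 19.2 and 24.7 CPM at 12 weeks and 145, 95.01 and 71.3 CPM at 34 weeks (log2 fold change 2.40 ± 0.42 SE, adjusted p = 0.00145). Acacb, its mitochondrial counterpart, was at 20.5, 33.7 and 35.6 CPM at 12 weeks and 278, 138 and 94.1 CPM at 34 weeks (log2 fold change 2.50 ± 0.49 SE, adjusted p = 0.0017). Neither gene overlapped between time points. Wild-type means of Fasn were 802 and 1310 CPM at 12 and 34 weeks, and those of untreated Lipa-/- mice 237 and 168 CPM, so the treated livers at 12 weeks had the lowest group mean. With each treated mouse left out in turn, 7 to 10 of the 20 genes rose. The summed level of the list was 9393 to 13420 CPM at 12 weeks and 12810 to 24510 CPM at 34 weeks, which overlapped. With length and GC offsets 4 rose, and Srebf1, which encodes the transcription factor SREBP1, moved from 1.64 to 0.57 (adjusted p = 0.138).

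Few cholesterol synthesis genes were called. Among 25 genes of the pathway and SREBP2 targets, 4 rose and none fell, with a median of 0.56, and the share that rose was near that of all genes. Srebf2, which encodes SREBP2 itself, was at 19.04, 20.9 and 20.6 CPM at 12 weeks and 74.5, 51.1 and 49.2 CPM at 34 weeks, and every liver at 34 weeks was above every liver at 12 weeks (log2 fold change 1.53 ± 0.30 SE, adjusted p = 0.00169). Hmgcs1, which makes the precursor of mevalonate, was at 125, 256 and 358 CPM at 12 weeks and 673, 397 and 719.8 CPM at 34 weeks. It did not overlap either and rose by 1.276 ± 0.43 on the log2 scale (SE, adjusted p = 0.0229). The call of Hmgcs1 was lost without mouse 10 or mouse 11 at 12 weeks and without mouse 9 or 12 at 34 weeks (0.99 to 1.30, adjusted p 0.0503 to 0.0888), and that of Srebf2 with the offsets (0.36). With offsets 4 of the 25 genes rose, and scaling by total counts raised the number to 16 and TPM to 20. Without mouse 12 at 12 weeks or mouse 11 at 34 weeks 7 rose.

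**Figure D2:**
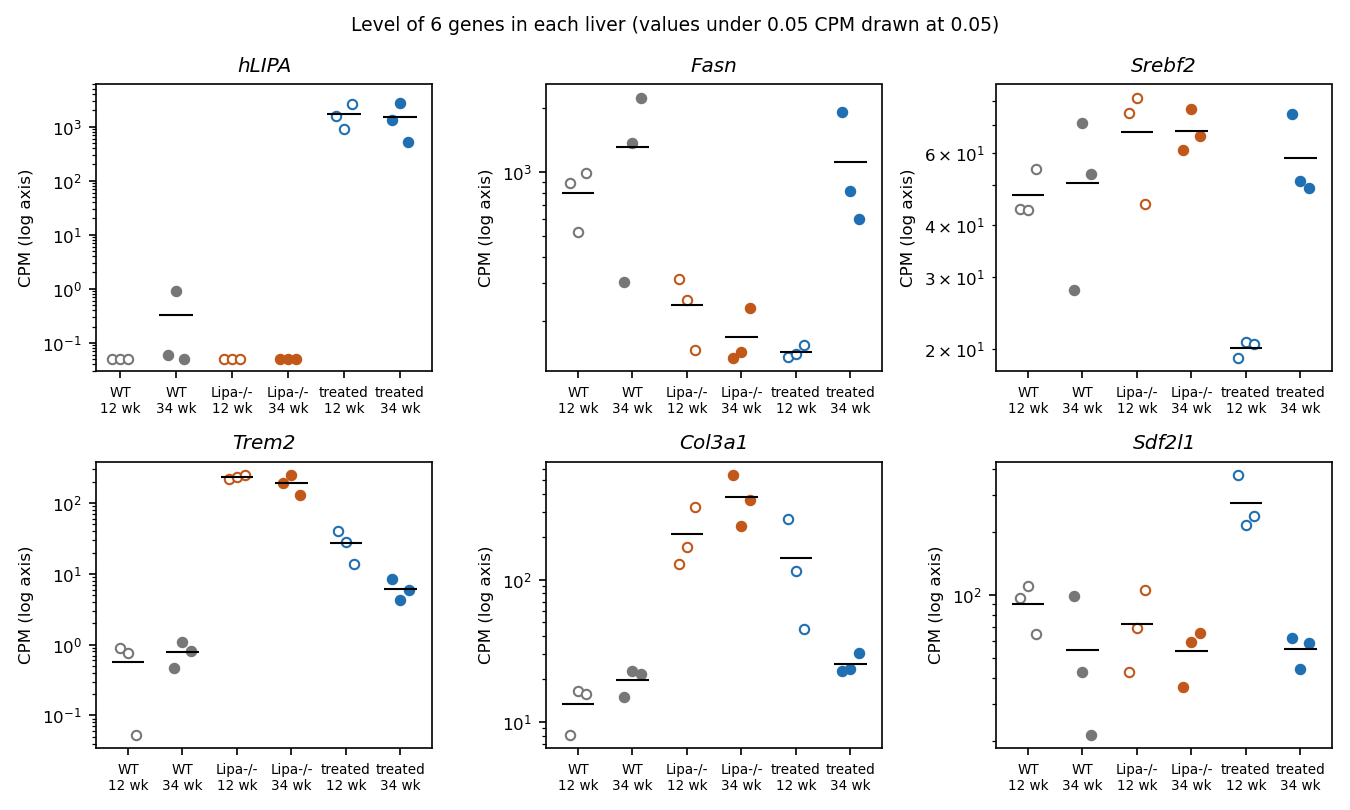
Level in CPM (log axis) of human LIPA, Fasn, Srebf2, Trem2, Col3a1 and Sdf2l1 in each of the 18 livers, with 3 points per group and a line at the group mean; open points are 12 weeks and filled points 34 weeks. Treated livers at 12 weeks hold the lowest Srebf2 and the highest Sdf2l1 values of all livers, and their Fasn values overlap those of untreated livers at 34 weeks, while Trem2 is highest in untreated Lipa-/- livers.

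Other genes of lipid handling went both ways, as did all tested genes, of which 17.5% rose and 14.5% fell. Nr1h3, the oxysterol receptor LXR alpha, was at 403, 233 and 248 CPM at 12 weeks and 79.6, 103 and 119.8 CPM at 34 weeks. It was lower in every mouse at 34 weeks (log2 fold change -1.54 ± 0.31 SE, adjusted p = 0.00178), but passed neither on total counts nor on TPM. Among 17 LXR targets and cholesterol efflux genes, 5 rose and 2 fell. Pltp, the phospholipid transfer protein, rose by 1.75 ± 0.49 on the log2 scale (SE, adjusted p = 0.00875) and Lpcat3, which builds polyunsaturated phospholipids, by 1.68 ± 0.43 on the log2 scale (SE, adjusted p = 0.00592), while the apolipoprotein gene Apoc1 fell (log2 fold change -1.96 ± 0.44 SE, adjusted p = 0.00286). With offsets 2 rose and 2 fell, and without mouse 10 at 12 weeks 3 rose. Of 36 genes of fatty acid oxidation and ketogenesis, 5 rose and 2 fell, and 3 rose without mouse 10 at 12 weeks or mouse 9 at 34 weeks. Cpt1a, the enzyme of fatty acid entry into mitochondria, was at 27.8, 65.7 and 74.2 CPM at 12 weeks and 202, 187 and 137 CPM at 34 weeks and did not overlap between time points (log2 fold change 1.65 ± 0.41 SE, adjusted p = 0.00472). Of 16 lipid droplet genes, 2 rose and 3 fell: Pnpla2, the adipose triglyceride lipase, rose by 1.52 ± 0.36 on the log2 scale (SE, adjusted p = 0.00356) and Abhd5, its coactivator, fell (log2 fold change -1.43 ± 0.27 SE, adjusted p = 0.00159). The call of Pnpla2 was lost with the offsets (0.99) and that of Abhd5 on total counts and on TPM, and without mouse 12 at 12 weeks 5 droplet genes rose. On total counts 7 droplet genes and 9 oxidation genes rose, and none of either list fell.

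Some genes that mark lipid-laden macrophages fell. Of 22 lipid-associated macrophage genes, 9 fell and none rose, with a median of -0.94. Trem2, a lipid receptor of these macrophages, was at 39.8, 28.04 and 13.8 CPM at 12 weeks and 8.45, 4.26 and 5.84 CPM at 34 weeks. Clec7a, the beta-glucan receptor dectin-1, was at 125, 61.4 and 44.8 CPM at 12 weeks and 11.01, 9.18 and 20.9 CPM at 34 weeks. Neither overlapped between time points, and mouse 10 was highest in both (log2 fold change -2.13 ± 0.46 SE, adjusted p = 0.00236 for Trem2 and log2 fold change -2.49 ± 0.55 SE, adjusted p = 0.00261 for Clec7a). The mean of Trem2 was 0.576 and 0.798 CPM in wild-type mice at 12 and 34 weeks and 234 and 190 CPM in untreated Lipa-/- mice, so all 6 treated livers lay between these means. Tyrobp, the signalling adaptor of Trem2, fell by 2.09 ± 0.53 on the log2 scale (SE, adjusted p = 0.00512) and Cd63, a membrane protein of late endosomes, by 1.78 ± 0.36 on the log2 scale (SE, adjusted p = 0.00187). Gpnmb, a lysosomal stress marker of the same list named after its values were seen, was at 146, 131 and 42.1 CPM at 12 weeks and 120.5, 42.1 and 7.94 CPM at 34 weeks. The groups overlapped and it did not pass (log2 fold change -0.90 ± 0.63 SE, adjusted p = 0.251), but it did without mouse 9 at 34 weeks (-2.09, adjusted p = 0.0205). Leaving out single treated mice left 7 to 11 of the 22 lower, length and GC offsets 7 lower and 1 higher, total counts 6 lower and 1 higher, and TPM 3 lower and 3 higher. The summed level of the list overlapped between time points, at 20850 to 43260 CPM at 12 weeks and 22610 to 36500 CPM at 34 weeks. In single wild-type livers it ran from 27790 to 41140 CPM. In untreated Lipa-/- livers it was 35360 to 41450 CPM at 12 weeks and 23520 to 28550 CPM at 34 weeks. The sum thus did not follow Trem2 across groups and is no measure of these macrophages.

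General macrophage markers gave few calls. Of 16 resident Kupffer cell markers Adgre1 and Nr1h3 fell and Csf1r rose (none fell and 2 rose on total counts, 1 fell and none rose without mouse 10 at 12 weeks, and 4 fell and none rose without mouse 12 at 34 weeks), and of 12 monocyte and inflammatory macrophage markers 2 fell and none rose (none fell without mouse 10 at 12 weeks, and 1 fell and 3 rose on total counts). Lyz2, lysozyme of macrophages and neutrophils, was at 2148, 875 and 477 CPM at 12 weeks and 134, 114 and 383 CPM at 34 weeks (log2 fold change -2.47 ± 0.67 SE, adjusted p = 0.00758). Adgre1, the F4/80 antigen, was at 67.8, 31.7 and 20.6 CPM at 12 weeks and 9.51, 10.6 and 17.7 CPM at 34 weeks (log2 fold change -1.66 ± 0.46 SE, adjusted p = 0.00821). Lyz2 and Adgre1 were highest in mouse 10, and without it neither passed (Lyz2 -1.65, adjusted p = 0.0631 and Adgre1 -1.02, adjusted p = 0.0824), nor did they on TPM. Csf1r, the receptor for macrophage colony-stimulating factor, was at 11.5, 17.8 and 16.6 CPM at 12 weeks and 34.7, 24.4 and 53.1 CPM at 34 weeks. It was higher in every mouse at 34 weeks (log2 fold change 1.29 ± 0.38 SE, adjusted p = 0.0126), but at 0.42 with the offsets (adjusted p = 0.359), and did not pass without mouse 10 at 12 weeks or mouse 12 at 34 weeks (1.16 and 0.99, adjusted p = 0.0538 and 0.0516). Ccl9, a chemokine of myeloid cells, was at 411, 286 and 180.2 CPM at 12 weeks and 29.4, 46.3 and 60.3 CPM at 34 weeks and did not overlap (log2 fold change -2.69 ± 0.52 SE, adjusted p = 0.0017). The acute phase gene Saa3 fell by 2.78 ± 0.54 on the log2 scale (SE, adjusted p = 0.0017), while Serpina3n, a serine protease inhibitor of the acute phase, was at 35.7, 63.2 and 89.8 CPM at 12 weeks and 268, 197 and 340.5 CPM at 34 weeks and rose (log2 fold change 2.09 ± 0.40 SE, adjusted p = 0.00162).

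One liver carried a neutrophil signal. Ngp, a granule protein of immature neutrophils, was at 0.0972, 1.68 and 0 CPM at 12 weeks and 0.163, 0.0546 and 133 CPM at 34 weeks, and Ltf, lactoferrin, at 0.194, 0.652 and 0 CPM at 12 weeks and 0.0813, 0.0546 and 61.5 CPM at 34 weeks. Both were high only in mouse 12 at 34 weeks, and the groups overlapped. Of 14 neutrophil markers 4 passed as higher at 34 weeks, Ngp among them at 5.99 ± 2.13 (SE, adjusted p = 0.0339). Without mouse 12 at 34 weeks no marker passed as higher, as was the case without mouse 12 at 12 weeks, and Ngp was at -2.50 (adjusted p = 0.326) and Ltf at -2.07 (adjusted p = 0.493). The summed level of the 14 markers was 1045 CPM in this mouse, 10.2 and 23.9 CPM in mice 11 and 9 at 34 weeks, and 87.05, 63.5 and 14.8 CPM in mice 10, 11 and 12 at 12 weeks. Without mouse 10 or 12 at 12 weeks Ngp was at 5.61 and 5.48 (adjusted p = 0.0985 and 0.0866), and Ltf did not pass without any 1 of the mice at 12 weeks (adjusted p = 0.0552 to 0.0813). Without mouse 10 or 11 at 12 weeks 1 marker passed, without mouse 11 at 34 weeks 8 and on TPM 1. In untreated Lipa-/- livers the sum ran from 1553 to 3315 CPM.

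Some genes of stellate cells and fibrillar collagen fell, while others did not pass or rose. Col3a1, the fibrillar collagen of scar and vessel walls, was at 267, 115 and 45.01 CPM at 12 weeks and 22.9, 23.4 and 30.5 CPM at 34 weeks. The groups did not overlap (log2 fold change -2.48 ± 0.52 SE, adjusted p = 0.00212), and wild-type means were 13.4 and 19.8 CPM at 12 and 34 weeks. Tagln, a smooth muscle and myofibroblast protein, was at 136, 31.9 and 22.2 CPM at 12 weeks and 7.52, 10.9 and 10.4 CPM at 34 weeks and Lum, the collagen-binding proteoglycan lumican, at 62.9, 29.9 and 13.8 CPM at 12 weeks and 8.41, 9.72 and 11.9 CPM at 34 weeks. Both were highest in mouse 10 (log2 fold change -2.72 ± 0.67 SE, adjusted p = 0.00453 for Tagln and log2 fold change -1.82 ± 0.52 SE, adjusted p = 0.00961 for Lum), and without it neither passed (Tagln -1.46, adjusted p = 0.0596 and Lum -1.10, adjusted p = 0.0958). On TPM none of these 3 genes passed. Of 18 stellate cell and myofibroblast markers 7 fell and 2 rose, with a median of -0.96. Without mouse 10 the counts were 1 lower and 1 higher with a median of -0.06, and on total counts 2 were lower and 4 higher and on TPM none lower and 3 higher. Of 27 collagens and matrix genes 5 fell and 6 rose (2 and 8 on total counts), and without mouse 10 at 12 weeks, or any 1 of the mice at 34 weeks, 2 or 3 fell. With length and GC offsets 11 of them fell and 3 rose. The summed level of the collagens and matrix genes was 1087, 1110 and 949.8 CPM at 12 weeks and 2871, 1729 and 1380 CPM at 34 weeks, so the sum was higher in every liver at 34 weeks. In single wild-type livers this sum ran from 1126 to 2231 CPM, above every treated liver at 12 weeks. At 34 weeks mice 11 and 12 lay within that range and mouse 9 above it. The summed level of the stellate cell markers was 1303, 794.6 and 524.7 CPM at 12 weeks and 391.6, 484.5 and 425.4 CPM at 34 weeks, lower in every liver at 34 weeks. Single wild-type livers held 220.4 to 412.3 CPM of these markers. Mmp14, a membrane-bound collagenase, was at 4.57, 9.78 and 6.901 CPM at 12 weeks and 36.4, 25.4 and 27.9 CPM at 34 weeks and did not overlap (log2 fold change 2.06 ± 0.31 SE, adjusted p = 0.00133).

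Several chaperones of the endoplasmic reticulum fell. Of 29 genes of the unfolded protein and integrated stress response, 7 fell and 1 rose, with a median of -0.51. Many chaperones of this compartment are switched on through a promoter sequence called the ER stress response element, ERSE (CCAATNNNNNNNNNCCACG), or its variant ERSE-II (ATTGG and CCACG with any base between them), which bind ATF6 and NF-Y. Of 27 listed genes with a RefSeq promoter, 10 held one of these on either strand within 250 bases before to 50 bases after the gene start. ERSE was found in 28.6% of the listed promoters and 0.119% of all 32851 promoters in the table, and ERSE-II in 7.14% and 0.0365%. The list was chosen for this response, so these shares do not bear on which genes fell. Most of the 10 genes were not called lower, namely Calr, Hsp90b1, Canx, Pdia6, Dnajc3, Dnajb11 and Syvn1. Among the genes that fell, Hspa5, Creld2 and Herpud1 held one. Their promoters are shown since these genes fell and hold a motif, in GRCm38.p6 with the motif in capitals, for Hspa5 at chr2:34771840-34772139 (plus strand), Creld2 at chr15:88819396-88819695 (plus strand, motif on the opposite strand) and Herpud1 at chr8:94386179-94386478 (plus strand, ERSE-II):
Hspa5: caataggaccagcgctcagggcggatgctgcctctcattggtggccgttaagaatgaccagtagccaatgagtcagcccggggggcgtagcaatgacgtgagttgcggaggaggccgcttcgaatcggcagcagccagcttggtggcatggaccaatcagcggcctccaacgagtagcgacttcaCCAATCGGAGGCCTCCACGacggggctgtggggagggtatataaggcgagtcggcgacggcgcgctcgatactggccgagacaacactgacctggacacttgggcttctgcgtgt
Creld2: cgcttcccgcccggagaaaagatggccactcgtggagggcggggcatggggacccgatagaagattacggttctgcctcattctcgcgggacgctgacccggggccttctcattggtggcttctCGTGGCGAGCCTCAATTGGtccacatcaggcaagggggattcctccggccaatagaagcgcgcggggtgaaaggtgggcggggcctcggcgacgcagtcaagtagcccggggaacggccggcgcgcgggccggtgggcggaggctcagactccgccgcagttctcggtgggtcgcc
Herpud1: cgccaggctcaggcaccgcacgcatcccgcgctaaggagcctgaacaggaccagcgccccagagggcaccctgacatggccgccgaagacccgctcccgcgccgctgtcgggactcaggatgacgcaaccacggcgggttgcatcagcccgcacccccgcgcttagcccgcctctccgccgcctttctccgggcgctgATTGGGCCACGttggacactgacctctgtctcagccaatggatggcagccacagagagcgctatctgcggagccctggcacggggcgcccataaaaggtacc

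Hspa5, the chaperone BiP, was at 2825, 1891 and 1818 CPM at 12 weeks and 979, 627 and 937 CPM at 34 weeks. It was lower in every mouse at 34 weeks (log2 fold change -1.36 ± 0.33 SE, adjusted p = 0.00394). Creld2, a disulfide isomerase-like protein, was at 110.5, 85.7 and 101 CPM at 12 weeks and 44.8, 23.7 and 53.6 CPM at 34 weeks, again without overlap (log2 fold change -1.28 ± 0.35 SE, adjusted p = 0.00857). Herpud1, a part of the degradation machinery of the compartment, was at 749, 340 and 276 CPM at 12 weeks and 182, 223 and 166 CPM at 34 weeks, highest in mouse 10 (log2 fold change -1.26 ± 0.40 SE, adjusted p = 0.0187). Without mouse 10 Herpud1 was at -0.66 (adjusted p = 0.18), and without mouse 9 or 12 at 34 weeks at -1.23 or -1.13 (adjusted p = 0.0612 and 0.059). Hspa5, Creld2, Herpud1 and the genes with a motif that were not called lower were named after their values were seen. Calr and Hsp90b1, chaperones whose promoters also held a match, stayed under 1 log2 unit (-0.75, adjusted p = 0.024 and -0.41, adjusted p = 0.135). Sdf2l1, a cochaperone of BiP with neither motif in its promoter window, was at 376, 216 and 238 CPM at 12 weeks and 62.02, 44.1 and 58.8 CPM at 34 weeks and fell (log2 fold change -2.33 ± 0.46 SE, adjusted p = 0.00179). With each treated mouse left out 5 to 7 of the 29 genes fell, and with length and GC offsets 7. On total counts 1 fell and 3 rose, with a median of 0.13 against 0.71 over all genes. On TPM 1 fell and 4 rose, with a median of 0.51 against 0.49 over all genes, and Hspa5, Creld2 and Herpud1 passed neither on total counts nor on TPM. In wild-type mice the median of the list was -0.47, with no gene passing.

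Transcripts of ribosomal proteins and of the respiratory chain were lower at 34 weeks. Of 75 cytosolic ribosomal protein genes 58 fell and none rose, with a median of -1.69 (40 fell and 1 rose on total counts, 29 and 1 on TPM). Rpl13a was at 8068, 3193 and 2716 CPM at 12 weeks and 236, 504 and 788 CPM at 34 weeks, each mouse at 34 weeks below each at 12 weeks (log2 fold change -3.19 ± 0.63 SE, adjusted p = 0.00176). The summed level of the 75 genes was 85470, 51310 and 46670 CPM at 12 weeks and 10270, 17900 and 20820 CPM at 34 weeks. In single wild-type livers it ran from 11950 to 33160 CPM. Of 36 complex I genes encoded in the nucleus 23 fell, of 35 genes of complexes II to V 27 fell, and of 38 mitochondrial ribosomal protein genes 29 fell and 1 rose. Summed complex I levels were 8222 to 12070 CPM at 12 weeks and 2482 to 4174 CPM at 34 weeks. Those of complexes II to V were 20540 to 30910 and 6478 to 10090 CPM. Single wild-type livers held 3336 to 6765 and 8419 to 16140 CPM. At 12 weeks both sums were above every wild-type liver, and at 34 weeks they overlapped the wild-type range. Ndufb8, an accessory subunit of complex I, was at 1360, 500.5 and 507 CPM at 12 weeks and 51.1, 119 and 145 CPM at 34 weeks (log2 fold change -2.91 ± 0.56 SE, adjusted p = 0.00167). Atp5e, the epsilon subunit of ATP synthase, was at 2681, 1052 and 963 CPM at 12 weeks and 79.9, 228 and 265 CPM at 34 weeks (log2 fold change -3.04 ± 0.59 SE, adjusted p = 0.0017). Proteasome subunits fell in 15 of 31 cases, with Psma7 at log2 fold change -2.50 ± 0.45 SE, adjusted p = 0.00146.

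These lists are made of short genes, with median effective lengths of 461 bases for ribosomal proteins, 460 for complex I, 486 for complexes II to V, 818 for mitochondrial ribosomal proteins and 1133 for proteasome subunits. With offsets for length and GC content 35 of 75 ribosomal protein genes fell and 1 rose (median -0.89), 6 of 36 complex I genes fell, 13 of 35 of complexes II to V, 10 of 38 mitochondrial ribosomal protein genes (2 rose) and 6 of 31 proteasome genes. Rpl13a was then at -2.38, Ndufb8 at -2.30 and Atp5e at -2.28, and all passed. Transcripts encoded by mitochondrial DNA went the other way: 5 of 13 rose and 1 fell. With the offsets 12 of 13 rose. Without mouse 10 or 11 at 12 weeks or mouse 9 at 34 weeks 1 or 2 rose, and without mouse 12 at 12 weeks 8. mt-Nd4l, a complex I subunit, was at 92.8, 86.1 and 169 CPM at 12 weeks and 961, 397 and 313 CPM at 34 weeks and did not overlap (log2 fold change 2.26 ± 0.56 SE, adjusted p = 0.00456), while mt-Nd3 was at -1.42 and at 0.36 with the offsets (adjusted p = 0.37), and without mouse 9 at 34 weeks at -1.18 (adjusted p = 0.0644). Reads of these genes were 1.53% to 3.38% of the libraries at 12 weeks and 4.80% to 8.36% at 34 weeks.

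**Figure D3:**
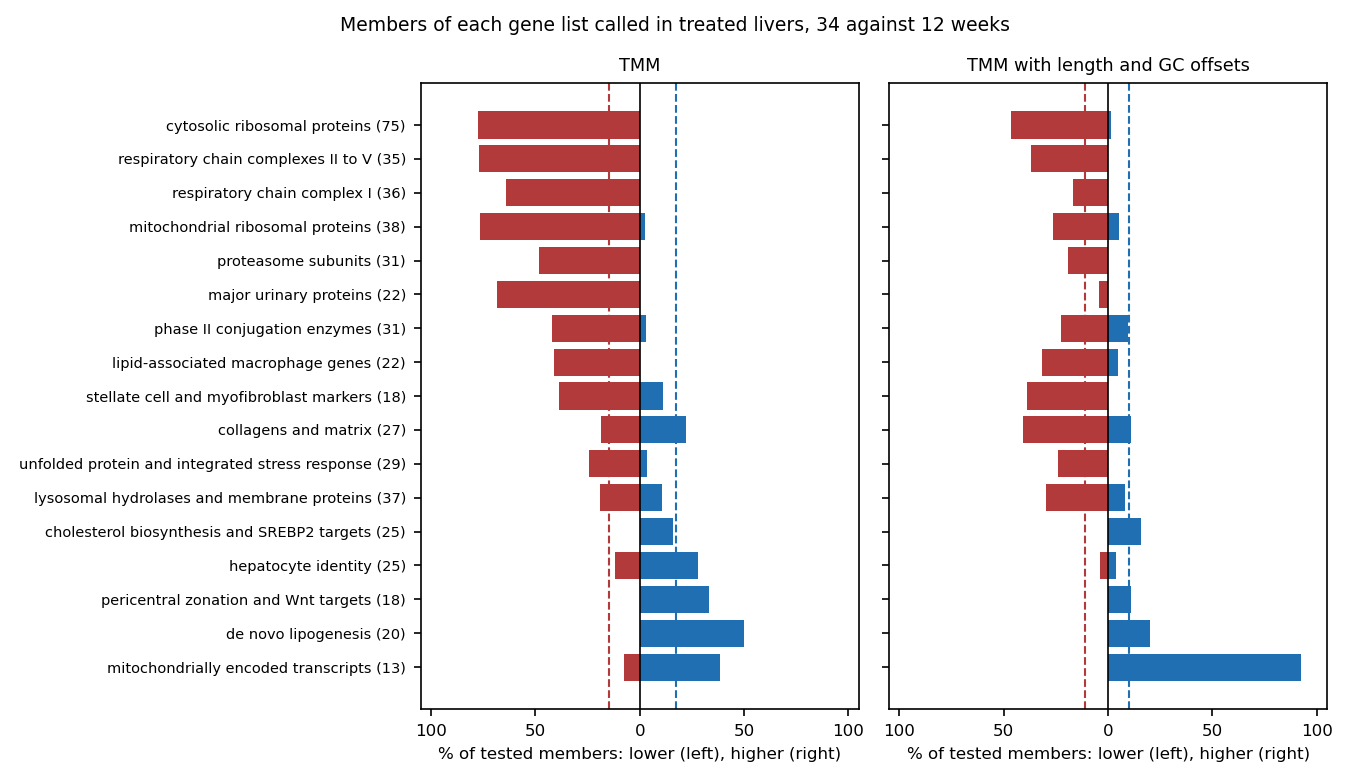
Share of the tested members of 17 gene lists (number of members in brackets) that were lower (left of 0) or higher (right of 0) in treated livers at 34 than at 12 weeks, with TMM factors alone and with offsets for gene length and GC content. Dashed lines are the shares over all genes tested, 17.5% and 14.5% on the left panel and 9.78% and 11.2% on the right; lists of short genes shrink towards them with the offsets, and mitochondrially encoded transcripts grow.

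Lysosomal genes went both ways, with a share called near the 32% of all tested genes. Of 37 lysosomal hydrolases and membrane proteins 4 rose and 7 fell, 3 rose and 11 fell with the offsets, and the direction turned on total counts (14 rose, 3 fell) and TPM (17 rose, none fell). Without mouse 11 at 12 weeks 7 rose. The summed level of the list was lower in every liver at 34 weeks, at 7899, 7295 and 6754 CPM at 12 weeks and 4838, 5598 and 5876 CPM at 34 weeks. Ctsk, a collagen-degrading cathepsin, was at 22.1, 8.37 and 3.68 CPM at 12 weeks and 3.05, 2.24 and 1.13 CPM at 34 weeks, highest in mouse 10 (log2 fold change -2.40 ± 0.58 SE, adjusted p = 0.00389). Ctsh, an aminopeptidase of the lysosome, was at 1331, 700.5 and 744 CPM at 12 weeks and 151, 282 and 305 CPM at 34 weeks (log2 fold change -1.91 ± 0.45 SE, adjusted p = 0.00361). Grn, which encodes progranulin, went the other way at 15.2, 55.3 and 52.5 CPM at 12 weeks and 148, 151 and 156 CPM at 34 weeks (log2 fold change 1.88 ± 0.37 SE, adjusted p = 0.00176). None of these 3 overlapped between time points, and Ctsk and Ctsh did not pass on TPM. Of 16 subunits of the V-ATPase, the proton pump of the lysosome, 5 fell and 1 rose, against 2 fell and 3 rose on TPM. Atp6v0b was at 856, 332 and 325 CPM at 12 weeks and 44.3, 88.5 and 108 CPM at 34 weeks (log2 fold change -2.65 ± 0.49 SE, adjusted p = 0.00154) and Atp6v0a1 at 0.68, 6.41 and 8.28 CPM at 12 weeks and 52.1, 34.97 and 23.9 CPM at 34 weeks (log2 fold change 2.83 ± 0.60 SE, adjusted p = 0.00211). Both encode parts of the membrane sector of the pump.

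The major urinary proteins, pheromone carriers that male liver makes under pulsed growth hormone, were lower at 34 weeks but uneven at 12 weeks. Of 22 genes 15 fell, with a median of -2.44. Mup2 was at 3638, 103 and 1525 CPM at 12 weeks and 71.4, 81.96 and 25.3 CPM at 34 weeks (log2 fold change -4.88 ± 1.02 SE, adjusted p = 0.00206). It was lowest among 12-week livers in mouse 11, which also had the lowest share of reads from the family at that time. The genes of this cluster are near-identical copies, so how reads were split between them is uncertain. Without mouse 10 at 12 weeks 7 genes fell, with the offsets 1 fell, on total counts 10 and on TPM 3. Of 29 male-biased growth hormone genes, among them Mups, 11 fell and 2 rose (5 and 1 with offsets, 4 and 8 on TPM), and 6 or 7 fell without mouse 10 or 12 at 12 weeks or mouse 9 or 12 at 34 weeks. Serpina12, the adipokine vaspin, was at 1736, 212 and 703 CPM at 12 weeks and 110.1, 188 and 112 CPM at 34 weeks (log2 fold change -2.69 ± 0.60 SE, adjusted p = 0.00271) and Socs2, a feedback inhibitor of growth hormone signalling, at 12.1, 48.03 and 75.7 CPM at 12 weeks and 4.67, 8.14 and 12.2 CPM at 34 weeks with overlap (log2 fold change -2.44 ± 0.60 SE, adjusted p = 0.00436). In wild-type mice the median of the male-biased list was -1.69, with 5 genes passing. Of 23 female-biased genes 2 rose and 3 fell in treated livers.

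Enzymes of conjugation were called in both directions. Of 31 phase II genes 13 fell and 1 rose (7 and 3 with offsets, 5 and 6 on total counts, 2 and 7 on TPM). Sult1d1, a sulfotransferase, was at 1545, 304 and 403 CPM at 12 weeks and 67.6, 97.9 and 157 CPM at 34 weeks and Ugt2b36, a glucuronosyltransferase, at 4462, 1823 and 2099 CPM at 12 weeks and 336, 584 and 609 CPM at 34 weeks. Neither overlapped (log2 fold change -2.81 ± 0.58 SE, adjusted p = 0.00196 for Sult1d1 and log2 fold change -2.46 ± 0.47 SE, adjusted p = 0.00169 for Ugt2b36). Of 25 xenobiotic cytochrome P450 genes 2 rose and 3 fell (7 and 1 on total counts), with Cyp3a11, the main inducible drug oxidase, at 4167, 1847 and 1511 CPM at 12 weeks and 429, 724 and 444 CPM at 34 weeks (log2 fold change -2.24 ± 0.42 SE, adjusted p = 0.0016). Of 25 bile acid genes 3 rose and 5 fell, but 7 rose and 1 fell on total counts, and without mouse 10 at 12 weeks, mouse 9 or mouse 11 at 34 weeks 1, 2 and 3 fell. Baat, which joins bile acids to taurine, was at 1402, 694 and 749.8 CPM at 12 weeks and 196, 246 and 234 CPM at 34 weeks and did not overlap (log2 fold change -2.07 ± 0.36 SE, adjusted p = 0.00145), but stayed under 1 log2 unit on TPM (-0.98). Of 24 complement genes 3 rose and 5 fell (6 and 2 on total counts), with C8g at log2 fold change -1.96 ± 0.44 SE, adjusted p = 0.00272. The shares of bile acid and complement genes called in either direction were near the 32% of all tested genes. Hpx, the plasma haem scavenger hemopexin, was at 22440, 15300 and 11020 CPM at 12 weeks and 2614, 3760 and 9001 CPM at 34 weeks (log2 fold change -1.67 ± 0.50 SE, adjusted p = 0.0128), and did not pass without mouse 10 at 12 weeks or mouse 9 or 11 at 34 weeks (-1.33, -1.35 and -1.49, adjusted p = 0.0645, 0.0651 and 0.053).

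Hepatocyte genes went both ways. Of 25 examined 7 rose and 3 fell, while 10 rose and none fell on total counts. Hnf4a, a central nuclear receptor of hepatocytes, was at 71.99, 133 and 145 CPM at 12 weeks and 425, 436 and 309.8 CPM at 34 weeks and did not overlap between time points (log2 fold change 1.74 ± 0.31 SE, adjusted p = 0.00145). Apoc3, an apolipoprotein of triglyceride-rich particles, was at 7781, 5395 and 5250 CPM at 12 weeks and 1254, 2197 and 2613 CPM at 34 weeks (log2 fold change -1.60 ± 0.38 SE, adjusted p = 0.00343). With the length and GC offsets 1 of the 25 rose and 1 fell, with Hnf4a at 0.83 and Apoc3 at -0.52 (adjusted p = 0.12). Without mouse 10 at 12 weeks or mouse 9 at 34 weeks 4 rose.

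Some targets of Wnt signalling, which sets the program of hepatocytes around the central vein, were higher at 34 weeks. Of 18 pericentral and Wnt target genes 6 rose and none fell, with a median of 0.89. Rnf43, a ligase that dampens Wnt receptors, was at 5.05, 4.51 and 4.14 CPM at 12 weeks and 24.6, 20.3 and 16.3 CPM at 34 weeks and Nkd1, another feedback inhibitor, at 1.17, 1.25 and 2.3 CPM at 12 weeks and 8.49, 6.23 and 4.63 CPM at 34 weeks. Neither overlapped between time points (log2 fold change 2.16 ± 0.37 SE, adjusted p = 0.00145 for Rnf43 and log2 fold change 2.03 ± 0.40 SE, adjusted p = 0.00172 for Nkd1). Axin2, a scaffold of the beta-catenin destruction complex, rose by 1.99 ± 0.54 on the log2 scale (SE, adjusted p = 0.00764) and with the offsets was at 1.22 (adjusted p = 0.0539). With offsets 2 of the 18 rose, on total counts 14, and 9 without mouse 12 of either time. Of 16 periportal genes 2 fell and none rose (none and 2 on total counts). Arg1, the last enzyme of the urea cycle, was at 3461, 3254 and 3055 CPM at 12 weeks and 946, 1206 and 1584 CPM at 34 weeks and did not overlap (log2 fold change -1.39 ± 0.31 SE, adjusted p = 0.00285), but did not pass with the offsets (-0.82) or on total counts or TPM.

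Of 22 circadian clock genes 4 rose and 1 fell, while 3 rose and 3 fell with the offsets and 8 rose without mouse 12 at 34 weeks and 11 on total counts. Over all tested genes 17.5% rose and 14.5% fell, so the share of clock genes that rose was near that of all genes. Npas2, a partner of the clock activator BMAL1, was at 1.36, 1.25 and 0.92 CPM at 12 weeks and 10.8, 5.08 and 4.16 CPM at 34 weeks (log2 fold change 2.51 ± 0.54 SE, adjusted p = 0.00227) and Cry2, a clock repressor, at 0.68, 3.64 and 2.99 CPM at 12 weeks and 24.6, 14.97 and 8.01 CPM at 34 weeks (log2 fold change 2.66 ± 0.57 SE, adjusted p = 0.0022). Neither overlapped. Of 27 genes of glycolysis and gluconeogenesis 7 rose and none fell (3 without mouse 10 at 12 weeks). Pfkfb3, which makes an activator of glycolysis, was at 1.55, 0.978 and 1.38 CPM at 12 weeks and 4.55, 3.83 and 6.54 CPM at 34 weeks (log2 fold change 1.95 ± 0.44 SE, adjusted p = 0.0027). Of 31 genes of the urea cycle and amino acid catabolism 5 rose and 3 fell, with 1 rising without mouse 10 at 12 weeks or mouse 9 at 34 weeks and 3 without mouse 11 at 34 weeks (8 rose and none fell on total counts). Prodh, proline dehydrogenase, was at 39.2, 67.6 and 109 CPM at 12 weeks and 210.5, 191 and 204 CPM at 34 weeks (log2 fold change 1.48 ± 0.34 SE, adjusted p = 0.00293). Of 22 tricarboxylic acid cycle genes 2 rose and 4 fell, with 2 falling without mouse 10, and 7 rising and 1 falling on total counts. Sdhd, a membrane anchor of succinate dehydrogenase, was at 1022, 524 and 465 CPM at 12 weeks and 104, 201 and 239.9 CPM at 34 weeks (log2 fold change -1.88 ± 0.45 SE, adjusted p = 0.00394).

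Of 16 heat shock genes 3 fell and 1 rose. Serpinh1, the collagen chaperone HSP47, was at 86.9, 53.1 and 34.05 CPM at 12 weeks and 13.7, 12.9 and 13.9 CPM at 34 weeks and Hspe1, the mitochondrial chaperonin subunit, at 1835, 787 and 728 CPM at 12 weeks and 116, 191 and 293 CPM at 34 weeks. Both were lower in every mouse at 34 weeks (log2 fold change -2.10 ± 0.34 SE, adjusted p = 0.00133 for Serpinh1 and log2 fold change -2.48 ± 0.47 SE, adjusted p = 0.0016 for Hspe1). Of 24 immediate early genes 4 rose and 2 fell (2 rose without mouse 9 at 34 weeks), and the share that rose was near the 17.5% of all tested genes. Jund, a subunit of the AP-1 factor, was at 3.89, 30.9 and 40.3 CPM at 12 weeks and 135, 120.1 and 118 CPM at 34 weeks (log2 fold change 2.31 ± 0.52 SE, adjusted p = 0.00271). Of 29 spliceosome and nuclear speckle genes 3 rose and 1 fell (1 rose without mouse 9 at 34 weeks, and 11 rose and none fell on total counts), with Srsf4, a splicing factor, at 2.82, 9.94 and 12.8 CPM at 12 weeks and 43.6, 40.1 and 29.4 CPM at 34 weeks (log2 fold change 2.13 ± 0.40 SE, adjusted p = 0.00159). Of 17 iron handling genes 1 rose and 2 fell (none fell without mouse 9 at 34 weeks, and 5 rose and none fell on total counts), and of 24 NRF2 targets 1 rose, which was G6pdx, the enzyme that opens the pentose phosphate pathway (log2 fold change 1.54 ± 0.34 SE, adjusted p = 0.00249).

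Markers of other cell types and immune genes were called in both directions. Of 16 sinusoidal endothelial markers 3 rose and 2 fell, a share near the 32% of all tested genes called in either direction, as was that of B and plasma cell markers. Flt4, a receptor for lymphatic growth factors, was at 0.583, 1.47 and 2.61 CPM at 12 weeks and 14.6, 9.999 and 5.49 CPM at 34 weeks and rose (log2 fold change 2.66 ± 0.58 SE, adjusted p = 0.00235), and Lyve1, a hyaluronan receptor of sinusoids, was at 18.3, 20.2 and 12.04 CPM at 12 weeks and 3.58, 9.45 and 4.79 CPM at 34 weeks and fell (log2 fold change -1.51 ± 0.43 SE, adjusted p = 0.00979), but not without mouse 9 at 34 weeks (-1.25, adjusted p = 0.0536). Of 13 cholangiocyte markers 1 rose. In 10 erythroid markers 1 rose and none fell, and in 27 cell cycle genes 1 fell. T and NK cell markers fell in 2 of 17 cases (5 without mouse 12 at 34 weeks, none without mouse 9 or 11), B and plasma cell markers fell in 3 and rose in 1 of 13 (none called without mouse 10 at 12 weeks or mouse 9 at 34 weeks, and 3 rose and none fell on total counts), and MHC class II genes fell in 2 of 12. Chemokines and their receptors fell in 4 of 25 cases, and in 1 without mouse 10 at 12 weeks or mouse 11 at 34 weeks and 7 without mouse 12 of either time. The shares of MHC class II and chemokine genes that fell were near the 14.5% of all tested genes. Interferon-stimulated genes rose in 2 and fell in 1 of 24 cases, and 5 fell without mouse 12 at 34 weeks but none without any other 1 of the treated mice. Of 23 acute phase genes 2 rose and 2 fell (4 without mouse 12 at 34 weeks), and of 21 coagulation factors 1 fell. On total counts no sinusoidal, T and NK cell, MHC class II, interferon-stimulated or coagulation gene of these lists fell, and 5, 2, 1, 5 and 6 rose.

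Among the genes with the largest differences, Tff3, a secreted trefoil peptide, was at 568, 853 and 159 CPM at 12 weeks and 5.89, 5.79 and 14.5 CPM at 34 weeks. Every mouse at 34 weeks was far below every mouse at 12 weeks (log2 fold change -5.91 ± 1.00 SE, adjusted p = 0.00145), and wild-type means were 8.03 and 0.479 CPM. Timp2, an inhibitor of matrix metalloproteinases, was at 3.79, 2.77 and 2.76 CPM at 12 weeks and 0, 0 and 0 CPM at 34 weeks. With no read at 34 weeks it was at least 23.2-fold lower than at 12 weeks, taking 3 reads in each library as the floor. Pde2a, a cyclic nucleotide phosphodiesterase, was at 3.498, 3.21 and 6.75 CPM at 12 weeks and 0.163, 0.0546 and 0.389 CPM at 34 weeks (log2 fold change -4.36 ± 1.19 SE, adjusted p = 0.00781), while in wild-type mice its means were 3.47 and 5.34 CPM. On TPM Pde2a did not pass (-0.24). It overlaps the protein-coding gene Gm45837 on the same strand (chr7:101070825-101162038 and chr7:101060093-101162026 in GRCm39, GENCODE annotation). Gm45837 was at 0, 0 and 0 CPM at 12 weeks and 10.7, 10.8 and 8.95 CPM at 34 weeks, at least 44.5-fold higher at 34 weeks, so the one model was lower and the other higher in the same livers, and how reads of this locus were split between them is uncertain. Srcap, the ATPase of a chromatin remodeller, was at 1.65, 0.109 and 1.15 CPM at 12 weeks and 40.1, 16.7 and 8.75 CPM at 34 weeks and Zfhx2, a zinc finger homeobox factor, at 0.0972, 0.217 and 0.997 CPM at 12 weeks and 19.2, 7.92 and 5.25 CPM at 34 weeks. Both were higher in every mouse at 34 weeks (log2 fold change 4.61 ± 0.87 SE, adjusted p = 0.0016 for Srcap and log2 fold change 4.61 ± 0.92 SE, adjusted p = 0.00184 for Zfhx2). The pseudogene Gm5641 was at 0, 0 and 3.14 CPM at 12 weeks and 119, 76.98 and 61.2 CPM at 34 weeks (log2 fold change 6.37 ± 0.93 SE, adjusted p = 0.00126), against 84.3 and 76.02 CPM in wild-type mice. With no read at 12 weeks, the processed pseudogene Gm5831 was at least 24.7-fold higher at 34 weeks. Reads of such pseudogenes can be shared with near-identical genes, so their values are uncertain.

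Whether the treated livers changed with time in a way that other livers did not was tested as a difference between time changes. Wild-type livers at 34 and 12 weeks, with the same codes 22-106 and 22-132, differed in 47 genes (0.323% of those tested). The time change of treated livers differed from that of wild-type livers in 2668 genes (18.4%), 1245 higher and 1423 lower. It differed from that of untreated Lipa-/- livers in 467 genes (3.21%), 400 higher and 67 lower. Both counts of calls moved strongly when single animals were left out. Without mouse 9 at 34 weeks the first fell to 1, without mouse 10 at 12 weeks to 446 and without mouse 11 at 34 weeks to 1211. The second was 1, 2, 44 and 120 without mice 11 and 9 at 34 weeks and mice 11 and 10 at 12 weeks, and 1562 and 1021 without mouse 12 at 12 and at 34 weeks. Leaving out control mice moved these counts too. The first count was 19, 3 and 172 without wild-type mouse 1 or 3 at 12 weeks or mouse 1 at 34 weeks. The second was 9, 1 and 1323 without untreated mouse 5, 8 or 9 at 12 weeks, and 1, 2 and 293 without untreated mouse 4, 5 or 6 at 34 weeks. Genes at an unadjusted p under 0.05 in edgeR's test moved less. For the first difference they were 5510 with all mice. With 1 mouse left out they ran from 4029 (wild-type mouse 1 at 34 weeks) to 5987 (treated mouse 12 at 34 weeks). For the second they were 4398 with all mice. They ran from 3085 (without treated mouse 10 at 12 weeks) to 4956 (without untreated mouse 9 at 12 weeks). The 47 genes of the wild-type mice became 9 and 13 without mouse 1 or 2 at 12 weeks and 101, 7 and 13 without mouse 1, 2 or 3 at 34 weeks. The count between treated livers of the 2 time points held between 3334 and 5205. Both differences share the treated mice with the comparison of the 2 time points.

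**Figure D4:**
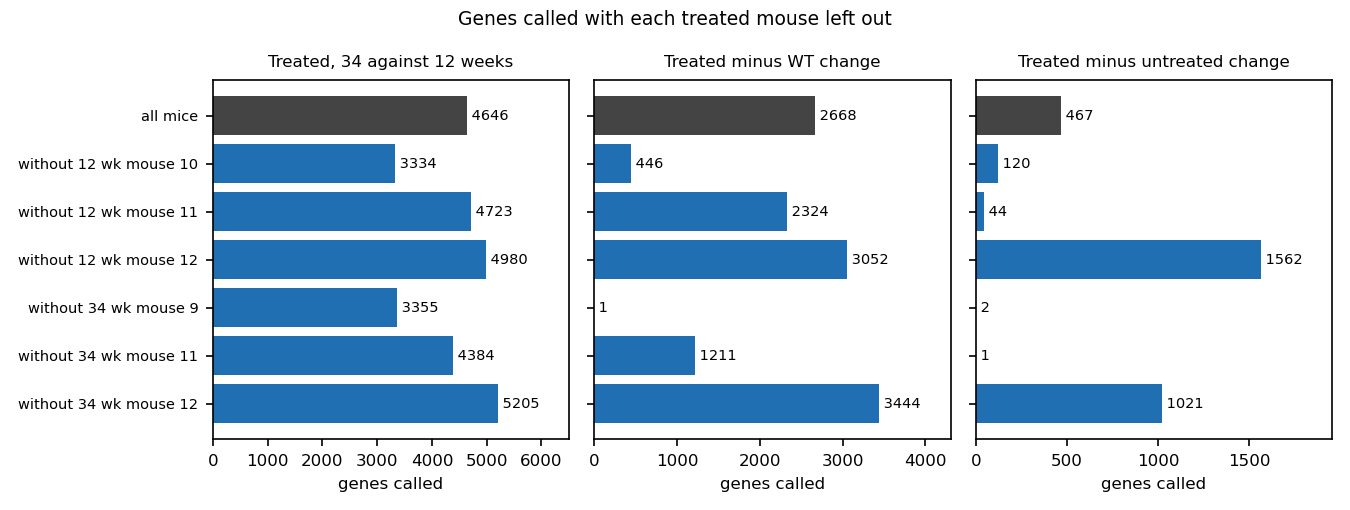
Genes called (bars, with their number) with all mice and with each treated mouse left out in turn, for treated livers at 34 against 12 weeks (left), for the difference of that change from wild-type mice (middle) and from untreated Lipa-/- mice (right). The left count stays between 3334 and 5205, while the others drop to 1 without mouse 9 and without mouse 11 at 34 weeks, respectively.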

How the data were processed

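Bulk RNA-seq of 18 male mouse livers was analysed, 3 per group. Per the study's methods, the authors quantified reads with Salmon against mouse GRCm39 transcripts and summed them to genes. The tables also hold rows named hLIPA and Lipa.delta4, whose sequences are not given in the sources used here. The deposited tables hold estimated counts (80.6% of values whole), TPM and effective lengths per gene and mouse. A further table holds the authors' own DESeq2 comparisons (R 4.3.0, DESeq2 1.40.1, per the submitters' processing notes) and was not used. The sources do not say that livers were pooled, and each column was taken as 1 mouse.

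Estimated counts were rounded to whole numbers, and genes with more than 100 reads over the 18 mice were kept. edgeR 4.0.16 in R 4.3.3 fitted 6 group means to all mice with TMM factors and robust quasi-likelihood dispersion. A gene was called with an absolute log2 fold change above 1 and a Benjamini-Hochberg adjusted p under 0.05 over all tested genes. All adjusted p-values are from this test unless another is named. SE values were derived from it, as the absolute log2 fold change divided by the square root of the F statistic. CPM values use TMM-scaled library sizes, and log2 CPM values a prior count of 2. Fold changes use the default prior count of edgeR's fit. Intervals from 3 reads cover counting error only. The scripts were tested on simulated data. Alternatives used DESeq2 1.42.0, limma 3.58.1 on log2(TPM + 1), other factors, filters, samples in the fit, a replicate block, effective-length offsets, and each mouse left out. Offsets for length and GC content (a spline with 4 degrees of freedom) were added after the data were seen. Promoters are from RefSeq on GRCm38.p6.

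The members and the 50 gene lists were chosen with earlier results of these data known. Named genes are hLIPA and Lipa, the 8 called genes with the largest change in each direction without overlap between groups, the 4 in each direction for the difference from wild-type mice, and up to 4 called members per list, all with a mean of at least 1 CPM. Not all genes that fit the rule are printed, and some items are not reported here. Genes outside it are said to be so.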

Additional observations from a re-analysis of the deposited data

Results flagged for a closer look

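The time change of treated livers differed from that of wild-type livers in 2668 genes and from that of untreated Lipa-/- livers in 467 genes, each by a test of the difference itself in edgeR's quasi-likelihood fit. Both counts depended on single treated mice. The genes with the largest such differences from wild-type livers were flagged by the same test. On the log2 scale the difference was -12.8 for Gm16867, -9.37 for Timp2, -6.36 for Gm46209 and -4.96 for Pde2a, and 9.30 for Gm5831, 6.52 for Gm5641, 5.43 for Chrna4 and 4.97 for Zfhx2. Timp2 had no read in treated livers at 34 weeks, Gm5831 none at 12 weeks and Gm16867 none in wild-type livers at 12 weeks. The fitted values of these genes therefore depend on the default prior count of edgeR's fit. Pde2a overlaps Gm45837, which was higher at 34 weeks, on the same strand. Groups of 3 were too small for a test of single outlying mice.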

How the results depend on the processing

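The number of genes called between treated livers at 34 and 12 weeks was 3055 with length and GC offsets, chosen after the data were seen, and ran from 3334 to 5205 when 1 mouse was left out. Other normalizations, filters, thresholds and tests left it within 1.5 times of 4646, but its members moved more. Of 4255 genes called by limma on TPM, 2146 were called in the same direction in the reported fit. On total counts this held for 3235 of 5687 genes, and with length offsets for 2908 of 3832. The difference from the wild-type time change (2668 genes) was 3 when only its own groups were fitted, 0 at an adjusted p under 0.01 (5510 at an unadjusted p under 0.05, and 3572 by DESeq2 at the usual threshold), 1682 by limma on TPM, 1775 with length and GC offsets, and 1 to 3444 with 1 mouse left out. The difference from untreated mice (467) was 1954 by DESeq2, 201 with RLE factors, 271 with upper-quartile factors, 1106 on total counts, 69 when only its own groups were fitted, 1 at an adjusted p under 0.01, 959 with length offsets, 983 by limma on TPM, and 1 to 1562 with 1 mouse left out. The wild-type comparison (47) gave 188 by DESeq2, 9 when only its own groups were fitted, 10 at an adjusted p under 0.01, and 7 to 101 with 1 mouse left out. The cause of these shifts was not tested. The calls higher at 34 weeks were 54.7% in the reported fit, 87.8% on total counts and 92.5% by limma on TPM.

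With the replicate number as a block no gene was called between treated livers (4298 at an unadjusted p under 0.05 in edgeR), nor for the differences from wild-type mice (2478) and from untreated mice (1666), and 5 were called in wild-type mice. The treated groups share only the numbers 11 and 12, which are different animals. The deviations of same-numbered mice from their group means correlated at r = -0.0765 and -0.253 across genes. Pairs with different numbers ran from -0.185 to 0.195, and so few pairs cannot tell whether same-numbered mice share more than a number.

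The direction of hLIPA turned to 0.49 on total counts, 0.31 with length offsets, 0.68 by limma on TPM, and 0.40 with length and GC offsets, and ran from -0.89 to 0.34 with 1 mouse left out (0.34 without treated mouse 12 at 12 weeks and 0.29 without treated mouse 12 at 34 weeks). Lipa was at 0.49 on total counts and 0.80 by limma on TPM, mt-Nd3 at 0.36 with length and GC offsets, Calr at 0.33 by limma on TPM, and Hsp90b1 at 0.22 on total counts and 0.62 by limma on TPM. With 1 mouse left out Ngp ran from -2.50 to 9.83 and Ltf from -2.07 to 7.81, both below 0 only without treated mouse 12 at 34 weeks.

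The 3 libraries per group limit every comparison, and study code, age and time cannot be told apart. A level under 3 reads per library could not be separated from 0.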

Other observations

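The human LIPA transcript was also counted outside the treated mice, with 23 reads in wild-type mouse 2 and 1 read in wild-type mouse 1 at 34 weeks, or 0.986 and 0.0399 TPM. No read was counted in the other wild-type mice or in untreated Lipa-/- mice.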
